A study of Homo sapiens with 6 samples.

Results

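The apolipoprotein L family comprises 6 human genes, APOL1, APOL2, APOL3, APOL4, APOL5 and APOL6, and all 6 were among the 18417 genes measured here. Members were taken by gene symbol, from probe sets that the platform annotation ties to a single member, and each gene had 1 probe set. The family was selected on measured values: APOL2 lay below the control array in all 4 arrays of cells treated with small interfering RNA (siRNA) directed at STEAP1. Differences between siRNA and control arrays are therefore given as a description, without a test.

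The RNA came from bulk cultures of A673 and SK-N-MC, both established Ewing tumor cell lines. The 6 arrays were A673 with STEAP1 siRNA 2, A673 with STEAP1 siRNA 3, A673 with a non-silencing control siRNA, and the same 3 treatments in SK-N-MC. All cells had siRNA at 5 nM for 48 h. Each line is represented by 1 control array. The title of the A673 control sample carries the number 2 and that of SK-N-MC no number, and neither title says which control siRNA was used. Nothing says whether the arrays of a line came from separate cultures. The p-values below measure only the spread between these arrays, which may be technical or may lie between the different siRNAs. In the comparisons of the lines and of the 2 siRNAs, it also holds differences in response between the lines. With 1 control array per line, the spread between control arrays of a line was not measured.

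Apolipoprotein L proteins are amphipathic proteins that associate with membranes, and most work inside the cell. APOL1 is the secreted member, carried on high-density lipoprotein particles in plasma, where it lyses trypanosomes. APOL3 is known for permeabilising the membranes of bacteria in the cytosol of interferon-treated human cells, and APOL6 carries a BH3-like motif and can promote cell death when overexpressed. Several members are induced by interferon gamma and by tumor necrosis factor in human endothelial and other cells. In the RefSeq table of GRCh38.p14 the genes form a cluster on chromosome 22, in the order APOL6, APOL5, APOL3, APOL4, APOL2 and APOL1.

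A level here is the log2 of an array intensity as deposited, and a response is the level of a siRNA array minus that of the control array of the same line. STEAP1, the target, had responses of -1.70 and -1.64 in A673 with siRNA 2 and siRNA 3, and of -2.98 and -2.42 in SK-N-MC. Of all 18417 genes, 8808 lay above the median of all genes on every A673 array and 8697 on every SK-N-MC array. Of the 8 Ewing tumor markers measured, STEAP1 among them, 7 did so in A673 and 8 in SK-N-MC. No blood cell or endothelial marker did so in either line, and of the 4 liver markers 0 did so in A673 and 1 in SK-N-MC. The median level of all genes lay between 3.21 and 3.24 on the 6 arrays, and the lower quartile between 1.72 and 1.84. No detection calls were used, so a low level has no stated floor.

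APOL2 (gene ID 23780, probe set 8075720) encodes an intracellular member without the secretion signal of APOL1. In A673 its level was 3.25 with siRNA 2 and 3.58 with siRNA 3, against 4.03 in the control array. In SK-N-MC the level was 2.69 with siRNA 2 and 2.89 with siRNA 3, against 3.84 in the control array. Every siRNA array lay below both control arrays. APOL2 was chosen for lying below control, and the share of all genes with such a separation was not computed, so nothing is read from it. In bulk RNA, fewer expressing cells and less RNA per cell cannot be told apart.

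The responses of APOL2 were -0.78 and -0.45 in A673 and -1.15 and -0.95 in SK-N-MC, siRNA 2 first. In percent of the control intensity, 58.3% and 73.4% were left in A673 and 45.2% and 51.8% in SK-N-MC. The mean response was -0.61 in A673 (SE 0.20) and -1.05 in SK-N-MC (SE 0.20), and -0.83 over both lines (SE 0.15). Ranked from the lowest over all genes by this mean over both lines, APOL2 was at place 42. APOL2 was chosen on this contrast, so nothing is read from the place or from a mean set against its SE. With a pseudocount of 8 intensity units, which compresses differences at low intensity, the mean over both lines was -0.48.

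APOL6 (gene ID 80830, probe set 8072710) gave the widest range of levels in the family, 1.55 on the log2 scale over the 6 arrays. In A673 its level was 3.18 with siRNA 2 and 2.96 with siRNA 3, against 2.86 in the control array. In SK-N-MC it was 3.10 with siRNA 2 and 2.71 with siRNA 3, against 4.26 in the control array. The SK-N-MC control array stood apart from the other 5, which spanned 2.71 to 3.18.

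The responses of APOL6 were 0.32 and 0.10 in A673 and -1.16 and -1.55 in SK-N-MC. The 2 A673 siRNA arrays had 125% and 107% of the control intensity, and the 2 SK-N-MC siRNA arrays 44.8% and 34.0%. The mean response was 0.21 in A673 (SE 0.22) and -1.36 in SK-N-MC (SE 0.22). By the A673 mean, APOL6 was at place 16199 from the lowest and APOL2 at place 120. By the SK-N-MC mean, APOL6 was at place 51 and APOL2 at place 79. Nothing is read from the places of APOL2, which was chosen on this contrast.

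**Figure D1:**
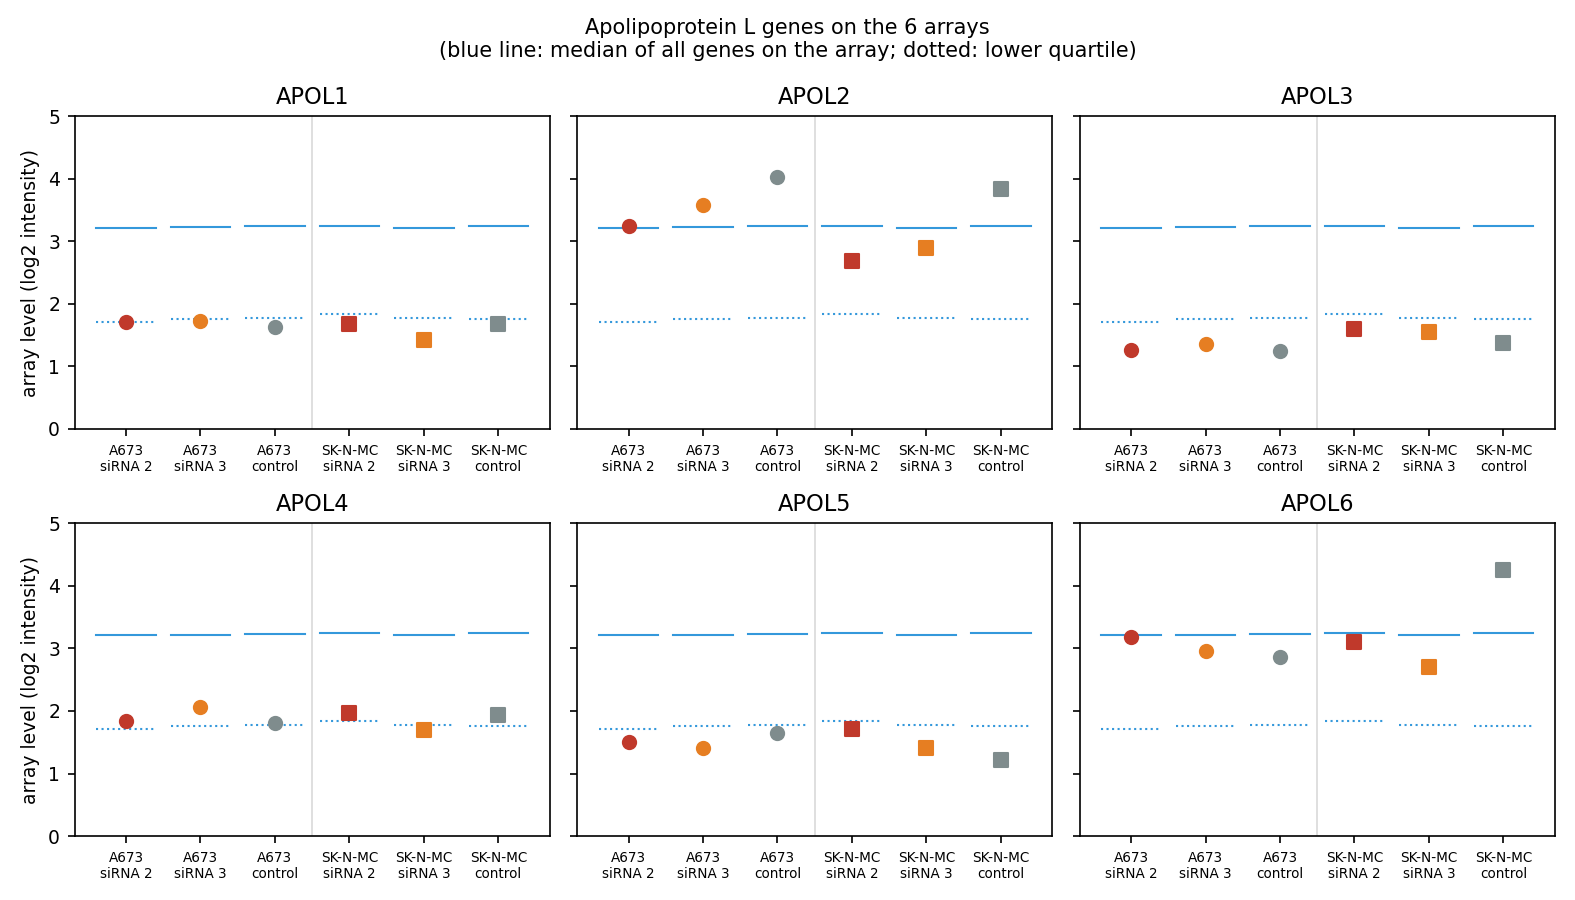
Level (log2 array intensity) of each apolipoprotein L gene on the 6 arrays, 1 point per array, circles for A673 and squares for SK-N-MC, red for siRNA 2, orange for siRNA 3 and grey for control. Blue lines give the median and dotted lines the lower quartile of all genes on that array. APOL2 lies highest in the control array of both lines, APOL6 reaches 4.26 in the SK-N-MC control array alone, and the other 4 members stay between 1.21 and 2.06.

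The other 4 members lay between 1.21 and 2.06, around the lower quartile of all genes, and the widest of their ranges over the 6 arrays was 0.50. APOL1 (gene ID 8542, probe set 8072735) was at 1.71, 1.72 and 1.62 in A673 with siRNA 2, siRNA 3 and control. It was at 1.68, 1.42 and 1.69 in SK-N-MC in the same order. Its responses were 0.083 and 0.097 in A673 and -0.0020 and -0.27 in SK-N-MC, so a single array, SK-N-MC with siRNA 3, stood lower than the rest.

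APOL3 (gene ID 80833, probe set 8075695) was at 1.27, 1.35 and 1.25 in A673 with siRNA 2, siRNA 3 and control, and at 1.60, 1.56 and 1.37 in SK-N-MC. All 4 of its responses were positive, at 0.016 and 0.10 in A673 and 0.23 and 0.19 in SK-N-MC. At this level of signal the largest of them is a step of 0.445 intensity units, to 3.03 with siRNA 2 against 2.58 in the SK-N-MC control array.

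APOL4 (gene ID 80832, probe set 8075709) was at 1.84, 2.06 and 1.81 in A673 and at 1.97, 1.70 and 1.94 in SK-N-MC, each with siRNA 2, siRNA 3 and control. Its responses had both signs within SK-N-MC, at 0.025 with siRNA 2 and -0.24 with siRNA 3. APOL5 (gene ID 80831, probe set 8072721) was at 1.5, 1.41 and 1.65 in A673 and at 1.71, 1.41 and 1.21 in SK-N-MC. Its responses were -0.15 and -0.25 in A673 and 0.50 and 0.19 in SK-N-MC. No member of this group of 4 had an intensity above 4.17 on any array, beside 19.2 for APOL6 in the SK-N-MC control array.

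**Figure D2:**
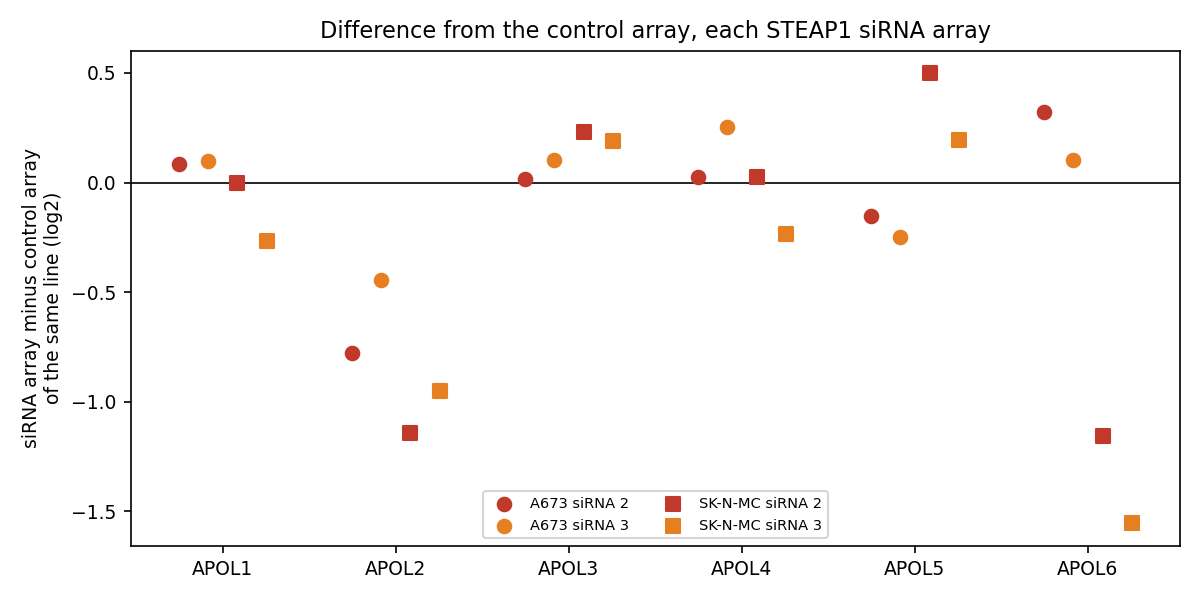
Response (siRNA array minus control array of the same line, log2) of each apolipoprotein L gene, 1 point per siRNA array, circles for A673 and squares for SK-N-MC, red for siRNA 2 and orange for siRNA 3. APOL2 lies below 0 in all 4 arrays, from -0.45 to -1.15, APOL6 lies at 0.32 and 0.10 in A673 and at -1.16 and -1.55 in SK-N-MC, and the other members stay between -0.27 and 0.50.

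Of the 6 members, 1 (APOL2) was lower than control in all 4 siRNA arrays, beside 11.2% of all genes. This is the count on which the family was chosen, so nothing is read from it. In both SK-N-MC siRNA arrays, 2 members (APOL2 and APOL6) were lower by at least 1.5-fold, beside 1.05% of all genes. In both A673 siRNA arrays 0 members were, beside 0.342% of all genes. These counts come from the same contrast and include APOL2, so nothing is read from them either. The median response of the 6 members was 0.075 in A673 and -0.12 in SK-N-MC, beside -0.0028 and -0.0040 for all genes. Both responses of a line share its 1 control array.

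Whether the lines differed in their response was tested directly, as the A673 response minus the SK-N-MC response. APOL6 differed by 1.57 (SE 0.31, 95% interval 0.84 to 2.31), with an unadjusted p of 0.00155 in limma and an adjusted p of 1.00 over 18417 genes. APOL5 differed by -0.55 (SE 0.27) and APOL2 by 0.43 (SE 0.29, 95% interval -0.25 to 1.12). APOL4, APOL1 and APOL3 differed by 0.25, 0.22 and -0.15, each by less than its SE. limma called 0 of the 6 members at an adjusted p under 0.05, and 0% of all genes, with 711 genes at an unadjusted p under 0.05. The fit has 2 residual degrees of freedom, both from siRNA 2 against siRNA 3 within a line. Its SEs, and those of the mean response in each line, therefore hold no spread between control arrays. For APOL6 the difference was 1.37 with siRNA 3 of SK-N-MC left out and 1.77 with siRNA 2 of SK-N-MC left out.

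**Figure D3:**
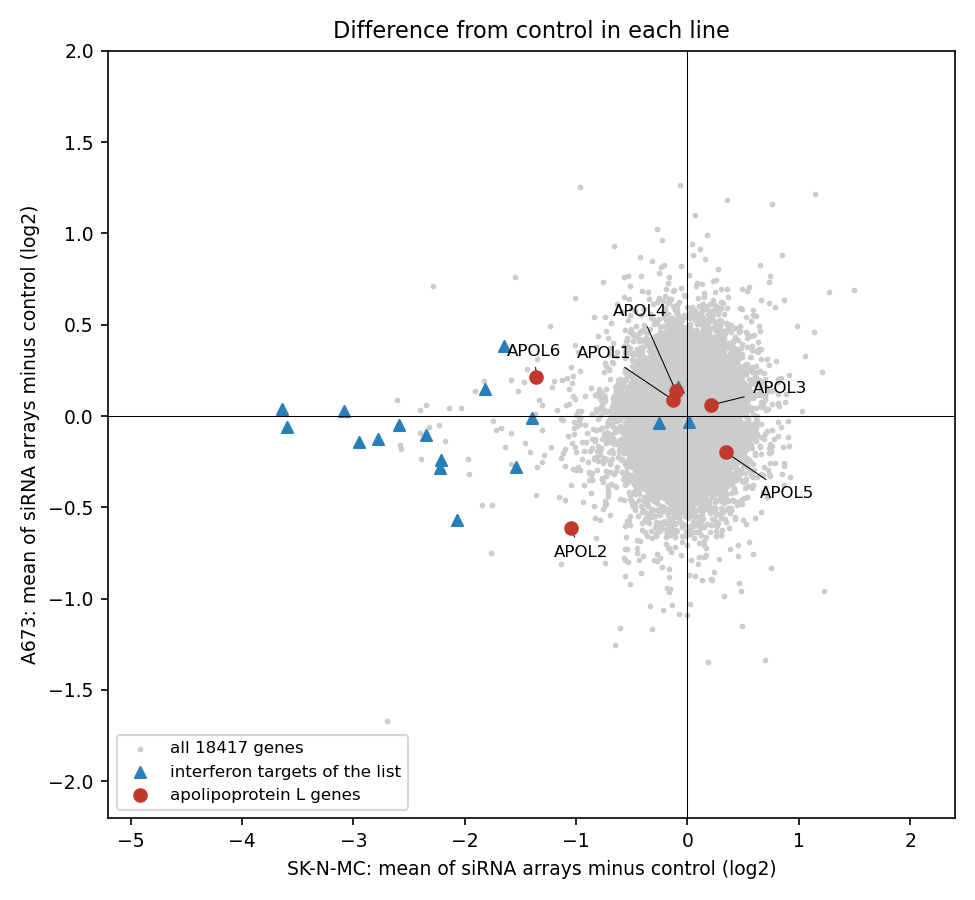
Mean response (log2, siRNA arrays minus control array) in SK-N-MC on the horizontal axis and in A673 on the vertical axis, 1 point per gene, with all 18417 genes in grey, interferon targets of the list as blue triangles and the apolipoprotein L genes in red. APOL6 (0.21 in A673 and -1.36 in SK-N-MC) lies to the left near the horizontal 0 line, APOL2 (-0.61 in A673 and -1.05 in SK-N-MC) lies to the left and lower, and the other 4 members lie within the cloud of all genes.

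The second tested comparison asks how the lines themselves differed, A673 minus SK-N-MC, in a fit with a line term and a silencing term. This fit has 3 residual degrees of freedom, and a difference in response between the lines counts as spread in it. APOL2 was higher in A673 by 0.48 (SE 0.15, 95% interval 0.15 to 0.81, limma adjusted p = 0.0440). At matched treatment the A673 array lay above the SK-N-MC array by 0.56 with siRNA 2, by 0.69 with siRNA 3 and by 0.19 in the control arrays, so A673 was higher in 3 of 3 pairs, and the difference was smallest between the controls. The call rests on a p close to the threshold: without either siRNA array of either line it was lost, with adjusted p-values from 0.0782 to 0.158 and differences from 0.34 to 0.53. It was also lost with an intensity trend in the variance model (adjusted p = 0.0606), with a pseudocount of 8 intensity units (0.26, adjusted p = 0.0808) and with intensities floored at 4 or 6 (adjusted p = 0.186 and 0.210). The floors left the APOL2 values, the lowest of them 6.47 intensity units, and the difference of 0.48 unchanged. Its adjusted p moved there only through the other genes of the fit.

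APOL6 differed by -0.36 between the lines (SE 0.29, 95% interval -1.03 to 0.32, adjusted p = 0.472). The A673 control array lay at 2.86 and the SK-N-MC control array at 4.26, a difference of -1.40, while the siRNA arrays differed by 0.079 with siRNA 2 and 0.26 with siRNA 3. Without the control array of either line, APOL6 differed by 0.17, on the other side of 0. APOL3 differed by -0.22 (SE 0.10, adjusted p = 0.188), and its A673 level was the lower one in each of 3 matched pairs. APOL1, APOL4 and APOL5 differed by 0.088, 0.031 and 0.077, each by less than its SE. In all, 1 of 6 members was called between the lines, beside 24.8% of all genes, a share near the background.

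The third tested comparison sets siRNA 2 against siRNA 3, with a line term. This fit has 2 residual degrees of freedom, both from differences in response between the lines. APOL2 was lower with siRNA 2 in both lines, by -0.33 in A673 and -0.20 in SK-N-MC (siRNA 2 minus siRNA 3), a mean of -0.26 (SE 0.16, 95% interval -0.64 to 0.11, limma adjusted p = 0.840). APOL6 was higher with siRNA 2 in both lines, by 0.22 and 0.40, a mean of 0.31 (SE 0.35, adjusted p = 0.934). APOL5 differed by 0.20 (SE 0.18), APOL1 by 0.12 (SE 0.15), APOL3 by -0.024 (SE 0.14) and APOL4 by 0.018 (SE 0.17). limma called 0 of 6 members and 0% of all genes, with 1229 genes at an unadjusted p under 0.05.

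Interferon pathway genes were listed by role because several apolipoprotein L genes are interferon targets. Of the 40 genes listed, 36 were measured. The 5 measured ligands had a median response of -0.19 in A673, against 0.041 in SK-N-MC. None of them lay above the array median on all arrays of either line, beside 8808 (A673) and 8697 (SK-N-MC) of all 18417 genes. The 9 receptors and kinases had median responses of 0.035 and -0.14. In both siRNA arrays of a line 0 of them were lower by 1.5-fold, beside 0.342% (A673) and 1.05% (SK-N-MC) of all genes. IFNGR1 and IFNGR2, the chains of the interferon gamma receptor, had mean responses of 0.12 and -0.18 in A673 and -0.21 and -0.14 in SK-N-MC.

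The 5 measured transcription factors of the pathway had median responses of -0.13 (A673) and -0.48 (SK-N-MC). Of these 5, 4 were lower than control in all 4 siRNA arrays, beside 11.2% of all genes. In both SK-N-MC siRNA arrays 1 of them was lower by 1.5-fold, beside 1.05% of all genes. IRF1, which binds and activates many interferon gamma targets, was at 1.86 and 1.77 with siRNA 2 and siRNA 3 in A673, against 2.05 in the control array. In SK-N-MC it was at 1.96 and 2.01, against 3.96 in the control array. As for APOL6, the SK-N-MC control array stood above the other 5 arrays, which did not pass 2.05 for IRF1 and 3.18 for APOL6. IRF9, the DNA-binding part of the type I interferon factor, was at 3.83 and 3.91 with siRNA in A673, against 4.0 in control, and at 4.27 and 5.16 with siRNA in SK-N-MC, against 5.48 in control. IRF2, a related factor that can repress IRF1 targets, had responses of 0.13 and 0.13 in A673 and -0.64 and -0.32 in SK-N-MC, and was named after its values were seen.

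The 17 interferon targets had median responses of -0.048 (A673) and -2.22 (SK-N-MC). In both SK-N-MC siRNA arrays 13 of 17 were lower by 1.5-fold, beside 1.05% of all genes. In both A673 siRNA arrays 0 of 17 were, beside 0.342% of all genes. PSMB9, an immunoproteasome subunit, was at 3.14 and 3.05 with siRNA in A673, against 3.66 in control, and at 2.54 and 2.97 with siRNA in SK-N-MC, against 4.82 in control. PSMB9 lay below control in all 4 siRNA arrays, as APOL2 did. In all, 8 of the 17 targets did so, beside 11.2% of all genes. GBP2, a guanylate-binding protein known as an interferon gamma target, stayed between 1.16 and 1.47 on all 6 arrays. In SK-N-MC, 16 of the 17 targets were lower with siRNA 2 than with siRNA 3, with a median difference of -0.97, beside 49.8% of all genes. Of the 6 members, 1 was lower with siRNA 2 there, APOL2 at -0.20, while APOL6 was higher, at 0.40. In A673, 8 of 17 targets were lower with siRNA 2, beside 51.8% of all genes. The summed intensity of the 17 targets ran from 142 to 157 over the A673 arrays and from 386 to 2914 over the SK-N-MC arrays, with the highest value in the SK-N-MC control array. Its part in the APOL2 and APOL6 values was not tested.

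Of 12 genes of tumor necrosis factor and NF-kB signalling, the other inducer of the family, 4 were lower than control in all 4 siRNA arrays, beside 11.2% of all genes, and 1 was higher in all 4, beside 10.6% of all genes. Their median response was -0.053 in A673 and -0.31 in SK-N-MC. The 14 measured genes of other apolipoproteins, which share the name but not the protein family, had medians of -0.045 and 0.0021, with 1 lower and 0 higher in all 4 arrays. APOLD1, a gene on another chromosome that encodes an apolipoprotein L domain, had responses of -0.38 and -0.20 in A673 and -0.10 and 0.087 in SK-N-MC.

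The genes next to the cluster were set beside it. MYH9, which encodes a non-muscle myosin heavy chain and lies next to APOL1, had responses of 0.081 and -0.033 in A673 and -0.23 and -0.075 in SK-N-MC. MYH9 was higher in A673 than in SK-N-MC by 0.56 (limma adjusted p = 0.00643). RBFOX2, a splicing regulator that lies between APOL5 and APOL3, stayed between 6.92 and 7.19 on all 6 arrays. TXN2 and FOXRED2, beyond MYH9, had mean responses from -0.068 to 0.13. On the APOL6 side MB, the myoglobin gene, averaged 0.027 (A673) and -0.026 (SK-N-MC) in response, and LOC284912 -0.35 and 0.093 in the same order. RASD2, a Ras-like small GTPase gene further out, had responses of -0.084 and -0.25 in A673 and lower ones of -1.10 and -0.92 in SK-N-MC. Its level did not pass 3.46 on any array.

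The pattern of APOL2 over the 6 arrays was compared with that of 7413 other genes with a mean level of at least 4, after subtracting each gene's own mean. The 5 genes with the smallest root mean square difference from APOL2 were TRIM5 (0.19), TBC1D5 (0.21), TIMP1 (0.21), B2M (0.22) and LINC01963 (0.22). TRIM5 encodes a retroviral restriction factor, TBC1D5 a regulator of endosomal sorting, TIMP1 an inhibitor of metalloproteinases, B2M the light chain of MHC class I, and LINC01963 a long noncoding RNA. Each was lower than control in all 4 siRNA arrays, beside 11.2% of all genes. These 5 genes were picked for their likeness to APOL2, which was chosen for that trait, so nothing is read from it. TRIM5 was at 4.53 and 4.61 with siRNA in A673, against 4.76 in control, and at 3.84 and 4.16 with siRNA in SK-N-MC, against 4.81 in control. On the same measure the other members differed from APOL2 by 0.46 (APOL1) to 0.60 (APOL3), with APOL6 at 0.56. A flat gene differs from APOL2 only by the variation of APOL2 itself, so these values do not rank the members by likeness. A small difference here describes 6 arrays and says nothing of shared control.

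**Figure D4:**
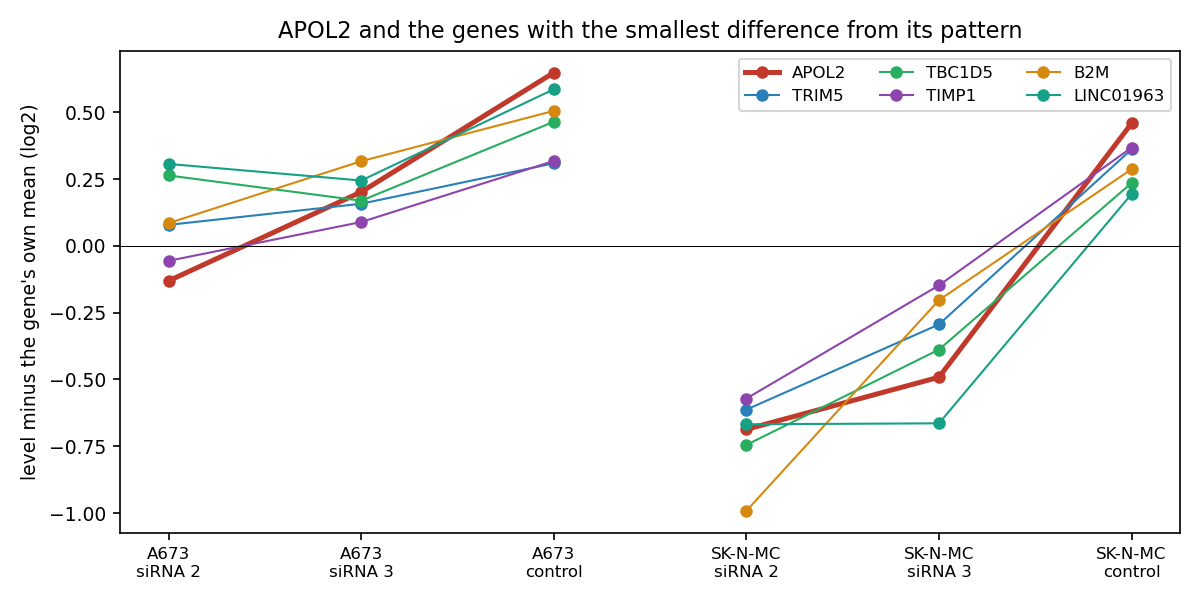
Level minus the gene's own mean over the 6 arrays (log2) for APOL2 (thick red line) and the 5 genes with the smallest root mean square difference from it, 1 point per array, with lines joining arrays of 1 line. All 6 genes are highest in the control array within each line, and in SK-N-MC they lie lowest with siRNA 2, with LINC01963 at nearly the same level with siRNA 3 (4.15 with both). The 5 genes were picked for likeness to APOL2, so the shared pattern follows from the choice.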

How the data were processed

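The authors deposited 1 column of linear intensity values per array for 33297 probe sets of an Affymetrix Human Gene ST array. The submitters' processing notes name RMA and Affymetrix Expression Console 1.1. How the values returned to a linear scale, the genome build and the annotation are not given in the sources used here. Column medians were 6.01 to 6.48 intensity units. log2 was taken with no further normalization. Of the probe sets, 19460 carry 1 gene symbol in the platform annotation, updated by gene ID through RefSeq names (19429 matched). The probe set with the highest mean stood for a gene, which left 18417 genes. No annotated probe set names a member beside other genes. Cross-hybridisation between these related genes was not tested.

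Linear models were fitted with limma 3.58.1 (R 4.3.3), with moderated two-sided p-values, Benjamini-Hochberg adjustment over all 18417 genes and a threshold of 0.05, and the fits were tested on simulated data. SEs and intervals come from these fits, and 95% intervals are not adjusted. The members, lists and rules were chosen with earlier results of these data known. The naming rule takes all members, the 5 genes nearest to APOL2, the 3 measured genes on either side of the cluster and fixed genes of the lists. Listed genes without a value were not analysed here. No member's promoter or protein sequence is printed. Alternatives covered scaling, low values, probe sets, the variance model and each array left out.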

Additional observations from a re-analysis of the deposited data

Results flagged for a closer look

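In 3 members the siRNA arrays of A673 all lay on one side of the control array and those of SK-N-MC on the other. The share of all genes that did so was not computed, so nothing is read from this count. APOL1 met the rule with a response of only -0.0020 in SK-N-MC with siRNA 2. For APOL6 the A673 response minus the SK-N-MC response was 1.57 (SE 0.31), for APOL5 -0.55 (SE 0.27) and for APOL1 0.22 (SE 0.26). The direct limma test called none of them, with an adjusted p of 1.00 for each and a lowest adjusted p of 0.290 for APOL6 over the alternatives run. APOL1 and APOL5 lay below the lower quartile of all genes on every array.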

How the results depend on the processing

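The response of APOL2 kept its sign under each alternative run, but the family was chosen on that sign, so nothing is read from this. The mean response of APOL2 over both lines was -0.48 with the pseudocount of 8 intensity units. With 1 array left out it ran from -1.05 without the A673 control array to -0.61 without the SK-N-MC control array. For APOL6 the same 2 omissions left -1.36 and 0.21, again the mean responses of SK-N-MC and of A673. Between the lines, 1 member (APOL2) and 4575 genes were called, and 0 members were called with floors of 4 or 6 intensity units (2479 and 2123 genes), the pseudocount or an intensity trend. With 1 array left out, 0 to 1 members and 3204 to 4387 genes were called. Differences between the lines that turned sign with single arrays left out ran from -0.0092 to 0.16 for APOL1, -0.067 to 0.11 for APOL4, -0.10 to 0.22 for APOL5 and -0.62 to 0.17 for APOL6. On the siRNA arrays alone, APOL5 stood at -0.10 and APOL6 at 0.17. For siRNA 2 minus siRNA 3 the ranges were -0.036 to 0.29 for APOL1, -0.11 to 0.062 for APOL3, -0.23 to 0.26 for APOL4, -0.014 to 0.42 for APOL5 and -0.15 to 0.77 for APOL6, and APOL4 stood at -0.030 with the floor of 4. The cause was not tested. For the difference of the responses, 75 and 167 genes were called with the floors of 4 and 6, where fewer genes vary, and 0 to 26 with 1 array left out, with 0 members in each. It could not be fitted without a control array. With a separate term for each siRNA in place of the silencing term, the line difference of APOL2 was 0.48 (limma adjusted p = 0.0296) and 4720 genes were called. The labels give only a shared siRNA number, and the deviations of same-numbered arrays correlated at 0.0663 across genes. With a mean level of at least 4 required, no member was tested, and with the floor of 6 only APOL2 and APOL6 had values. Low signal limits the other 4 members.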
